A study of Rattus norvegicus with 8 samples.

Results

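T cells recognise a graft through the T cell receptor, and 44 genes that give these cells their identity or carry the signal of that receptor were followed through peripheral nerve allografts (PNAs) of the rat sciatic nerve. The genes were listed by name, and 43 of the 44 were found with at least 1 read, among 22798 genes with a read in the deposited values. Fyb, which encodes an adaptor of the same pathway, was not analysed here. The question was how the transcripts of T cells and of their receptor signal differed between PEG-fused PNAs, PNAs repaired without polyethylene glycol (PEG), and nerves that were never operated on.

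Nerve tissue came from outbred female Sprague Dawley rats (Envigo) aged 3 to 6 months. PEG-fused PNAs (PEG, n = 3) and negative control PNAs (NC, n = 3) were excised at 14 days postoperatively (PO), and both kinds of graft were washed with hypotonic Plasmalyte A and methylene blue and joined to the host nerve with microsutures. The treatments differed in the PEG solution, which was put on the lesion sites of PEG-fused PNAs and left out for NC PNAs. Donors were other rats of the same outbred stock, without tissue matching, and neither donor nor host was immune-suppressed, so a graft can hold cells of both. Unoperated Control nerves (Unop, n = 2) received no graft and no treatment. By the study's methods the samples of a group are from as many animals, so p-values measure the spread between animals. Values are normalized read counts (reads per gene divided by a size factor for the library). Libraries held between 32472925 and 39959620 reads on genes.

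The T cell receptor has no enzyme of its own. It signals through the CD3 and zeta chains, which the kinase Lck phosphorylates when a coreceptor, CD4 or CD8, brings it to the receptor. The kinase Zap70 then docks on these chains and phosphorylates the adaptors Lat and Slp-76, from which calcium, Ras and protein kinase C signals lead to transcription factors of the NFAT and other families. In an allograft, host T cells carry this machinery into the tissue during rejection, whereas an intact nerve holds few of them.

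Transcripts of T cell identity and receptor signalling were lower in PEG-fused than in NC PNAs almost throughout the set. At an adjusted p under 0.05, 42 of the 43 genes fell, 0 rose and 1, Slamf6, did not pass the test, and all 43 log2 fold changes were negative. Of all 16478 genes tested, 13.9% were called lower and 15% higher in that comparison. The median log2 fold change of the 43 genes was -2.76, beside 0.00 over all genes tested, and 39 genes lay below -1. Every PEG library stood below every NC library for 42 of the 43 genes, an order that 23.3% of all genes tested showed. PEG-fused PNAs held a median of 15.0% of the NC mean, from 7.77% for Cd3d to 60.4% for Slamf6. With DESeq2 and with edgeR on whole reads, 42 genes were again lower and 0 higher.

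Both kinds of graft nonetheless carried more of these transcripts than Unop nerves. In PEG-fused PNAs against Unop nerves, 36 of the 43 genes rose, Grap2 and Prkcq fell, and Sh2d1a, Ubash3a, Gata3, Tcf7 and Lef1 did not pass the test, with 29.1% of all genes tested called higher and 28.6% called lower. In NC PNAs against Unop nerves, 42 genes rose and Prkcq fell, with 32.2% of all genes tested called higher and 32.3% called lower. The median log2 fold change was 3.09 for PEG-fused PNAs and 5.56 for NC PNAs over Unop nerves, and the comparisons share the Unop libraries. The means ran NC above PEG above Unop for 41 of the 43 genes. All 43 genes would pass the filter on low counts through the PEG libraries alone, and 31 through the Unop libraries alone. The other genes entered the comparisons with Unop nerves only because the grafts had reads. These are values of whole tissue, in which fewer T cells and less RNA per T cell cannot be told apart.

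**Figure D1:**
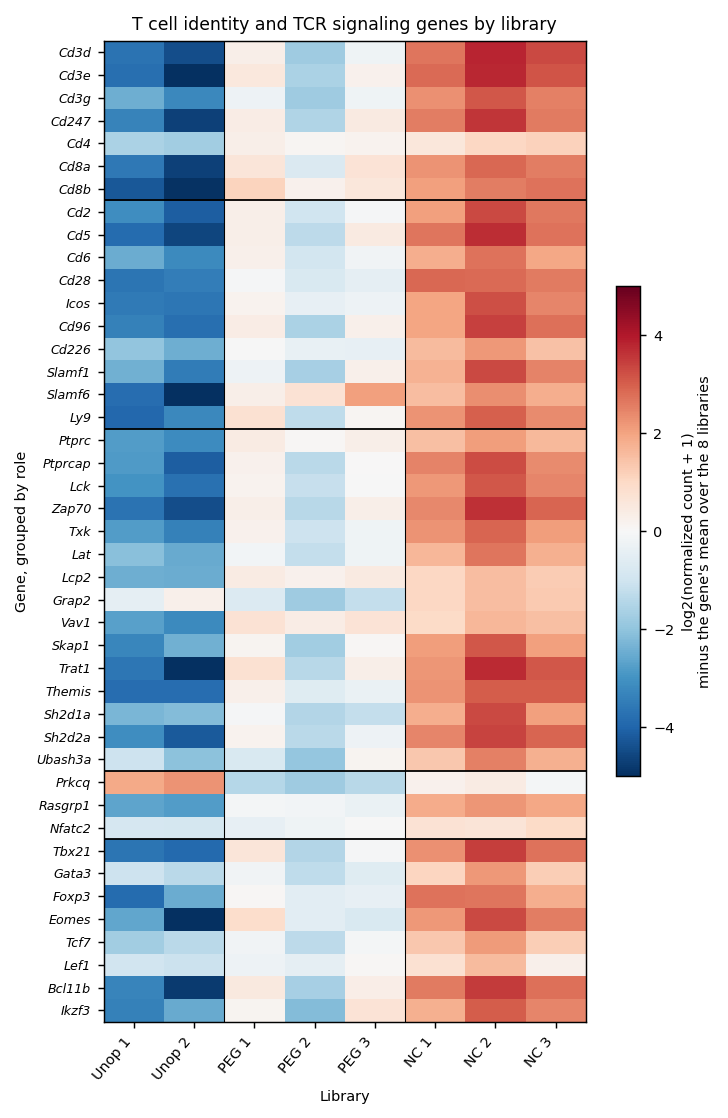
Level of each of the 43 genes (rows, grouped by role) in each of the 8 libraries (columns), as log2(normalized count + 1) minus the mean of that gene over the 8 libraries, from blue (low) to red (high). NC libraries are the reddest columns for all genes but Prkcq and Slamf6, PEG libraries mostly lie near 0 with PEG 2 the lowest, and Unop libraries are mostly blue, with Prkcq red in Unop.

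The libraries of a group were not alike. PEG 2 was the lowest PEG library for 38 of the 43 genes and PEG 1 the highest for 30, and among NC libraries NC 2 was the highest for 37 and NC 1 the lowest for 33. The median coefficient of variation was 41.8% in PEG-fused and 35.6% in NC PNAs. Without PEG 2, the median log2 fold change of PEG-fused against NC PNAs was -2.40 and 39 genes were called lower. Without NC 2, the values were -2.52 and 40 genes. Leaving out PEG 2 moved the fold of 8 genes by over 1.5 times in that comparison, Cd3d, Cd3e, Cd247, Cd96, Skap1, Trat1, Bcl11b and Ikzf3, with values without it given where each is described. It moved the folds of the same 8 genes over Unop nerves in PEG-fused PNAs, all upward. Leaving out Unop 1 or Unop 2 moved 7 folds by over 1.5 times in each comparison with Unop nerves, those of Cd3e, Cd247, Ptprcap, Trat1, Foxp3, Eomes and Bcl11b, and none of these lost its call.

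The receptor complex and its coreceptors fell together. All 7 genes measured were called lower in PEG-fused than in NC PNAs and higher in both kinds of graft than in Unop nerves, with a median log2 fold change of PEG over NC of -3.13. They were Cd3d, Cd3e and Cd3g, which encode the CD3 chains, Cd247, which encodes the zeta chain, and Cd4, Cd8a and Cd8b, which encode the coreceptors for class II and class I major histocompatibility molecules.

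Cd3g had 349, 121 and 359 normalized counts in PEG 1 to PEG 3, 2024, 3529.6 and 2379 in NC 1 to NC 3, and 75.1 and 43.8 in Unop 1 and Unop 2. The 3 groups did not overlap, with PEG 2 nearest to Unop. The log2 fold change of Cd3g was -3.37 (SE 0.43, adjusted p = 0.00148) in PEG-fused against NC PNAs. Against Unop nerves it was 2.09 (SE 0.49, adjusted p = 0.0061) in PEG-fused PNAs, a call that was lost without Unop 2, where the value was 1.71 (adjusted p = 0.06).

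Cd3d stood at 322, 75.7 and 228 in the PEG libraries, at 1702, 3728 and 2620.0 in the NC libraries and at 19.3 and 11.3 in Unop nerves. The mean in PEG-fused PNAs was 7.77% of that in NC PNAs, the lowest share among the 43 genes. On the log2 scale Cd3d stood at -3.84 (SE 0.52, adjusted p = 0.00183) against NC PNAs, -3.23 without PEG 2, and 3.50 (SE 0.59, adjusted p = 0.00112) against Unop nerves, 4.11 without PEG 2. Cd3e had 799.9, 189 and 649 in PEG-fused PNAs and 4023, 7609 and 5022 in NC PNAs. Cd247 had 279.9, 75.7 and 301.1 in PEG-fused PNAs and 1284, 2575 and 1323 in NC PNAs, so neither gene's groups overlapped. On the log2 scale these were -3.53 (adjusted p = 0.00323) for Cd3e and -3.13 (adjusted p = 0.00593) for Cd247. Without PEG 2, Cd3e stood at -2.89 and Cd247 at -2.49 against NC PNAs.

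Cd3d and Cd3g are divergent neighbours, whose transcription starts lie 1601 bases apart on opposite strands of chromosome 8 in the GRCr8 build, and Cd3e starts 26251 bases from Cd3d. Their promoters, shown because these genes moved together and Cd3d fell the most of the set, are given 5′ to 3′ on the strand of each gene, 250 bases before to 50 bases after the start (RefSeq, GRCr8). Capitals mark matches, on either strand, to AGGAAG, a core of sites for ETS factors, and to CTTTGA, a core of sites for TCF and LEF factors.
Cd3d (chr8:54185269-54185568, plus strand): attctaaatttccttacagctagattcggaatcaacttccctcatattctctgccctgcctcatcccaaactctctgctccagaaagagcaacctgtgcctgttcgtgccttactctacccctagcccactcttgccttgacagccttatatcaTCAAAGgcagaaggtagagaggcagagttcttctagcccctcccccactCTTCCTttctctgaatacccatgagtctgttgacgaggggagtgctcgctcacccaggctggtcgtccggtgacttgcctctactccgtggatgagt
Cd3g (chr8:54183869-54184168, minus strand): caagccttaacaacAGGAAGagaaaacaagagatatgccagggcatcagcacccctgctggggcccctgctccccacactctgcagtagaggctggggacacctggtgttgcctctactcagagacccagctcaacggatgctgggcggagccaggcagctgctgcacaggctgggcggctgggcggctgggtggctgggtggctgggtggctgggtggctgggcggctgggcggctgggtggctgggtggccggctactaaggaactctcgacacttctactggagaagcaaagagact
Cd3e (chr8:54211721-54212020, minus strand): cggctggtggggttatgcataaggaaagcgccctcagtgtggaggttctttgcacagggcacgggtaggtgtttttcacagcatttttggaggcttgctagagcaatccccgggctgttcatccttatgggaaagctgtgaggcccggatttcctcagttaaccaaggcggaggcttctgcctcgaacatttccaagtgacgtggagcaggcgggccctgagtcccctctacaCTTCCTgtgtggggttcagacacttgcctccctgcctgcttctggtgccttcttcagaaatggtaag
Each of the 3 promoters held 1 match to AGGAAG, and that of Cd3d also held 1 to CTTTGA, which overlapped no other match. A match is a run of letters and was not tested as a bound site. AGGAAG stood in 20 of 35 promoter entries of 34 genes of the set (57.1%) and in 34.5% of all 33469 promoters, on either strand. TGTGGT, a core for RUNX factors, stood in 28.6% of the 35 entries and 17.3% of all promoters, CTTTGA in 17.1% and 16.1%, and AGATAA, a core for GATA factors, in 8.57% and 11.6%.

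In PEG-fused against NC PNAs the coreceptors had smaller fold changes than the CD3 chains. Cd4, the coreceptor of helper T cells that rat macrophages also carry, had 6332, 5667 and 5824 normalized counts in PEG-fused PNAs, 7776, 10656 and 11602 in NC PNAs and 1751 and 1578 in Unop nerves. The groups did not overlap, and the mean in PEG-fused PNAs was 59.3% of that in NC PNAs. Its log2 fold change was -0.73 (SE 0.15, adjusted p = 0.00766) in PEG-fused against NC PNAs, the smallest of the 7 and of the whole set, and 1.83 (SE 0.16, adjusted p = 3.40e-05) in PEG-fused PNAs against Unop nerves. The 6 macrophage markers measured (Cd68, Csf1r, Cd14, Aif1, Adgre1 and Mrc1) summed to between 54353 and 61328 normalized counts in PEG-fused PNAs, 69264 and 80423 in NC PNAs and 11394 and 15769 in Unop nerves. Of these, 4 fell in PEG-fused against NC PNAs, Cd68 and Mrc1 did not pass the test, and the part of macrophages in the Cd4 value was not tested.

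Cd8a and Cd8b, which encode the chains of the coreceptor of cytotoxic T cells, had log2 fold changes of -2.35 and -1.79 in PEG-fused against NC PNAs. Cd8b stood at 1619, 863 and 1126 in PEG-fused PNAs, 3079, 4385 and 4869 in NC PNAs and 38.6 and 23.8 in Unop nerves. PEG-fused PNAs thus held 29.3% of the NC mean of Cd8b and 21.0% of that of Cd8a, beside 9.83% for Cd3e. The part of cells other than T cells in the Cd8a and Cd8b values was not tested. Against Unop nerves, Cd8b had the second-largest rise of the set in PEG-fused PNAs, with a log2 fold change of 5.22 (SE 0.31, adjusted p = 5.15e-06).

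**Figure D2:**
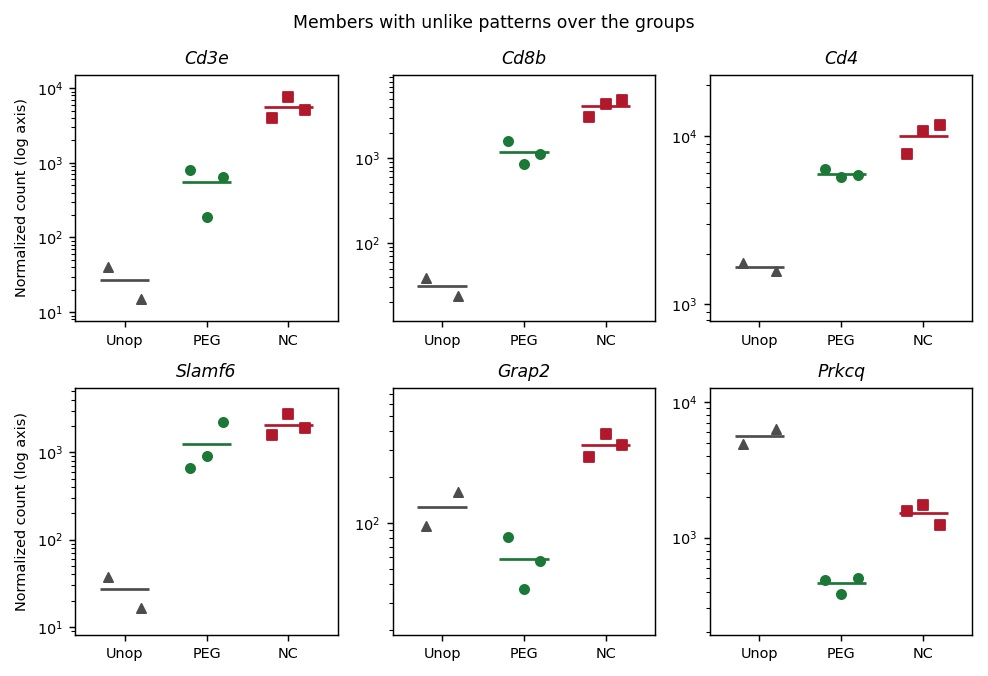
Normalized counts (log axis) of Cd3e, Cd8b, Cd4, Slamf6, Grap2 and Prkcq in each library, with a bar at the group mean (Unop n = 2, PEG n = 3, NC n = 3). Cd3e, Cd8b and Cd4 step up from Unop to PEG to NC, PEG 3 of Slamf6 lies among the NC libraries, Grap2 is lowest in PEG and Prkcq is highest in Unop.

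Costimulatory and adhesion receptors were lower too. Of 10 genes, 9 were called lower in PEG-fused than in NC PNAs, Slamf6 did not pass the test, and all 10 were called higher in each kind of graft than in Unop nerves. The median log2 fold change of PEG over NC was -2.80. The group holds Cd28 and Icos, which give T cells their second signal, Cd2, an adhesion receptor, Cd5 and Cd6, which tune the receptor signal, Cd96 and Cd226, receptors for ligands of the nectin family that natural killer (NK) cells also carry, and Slamf1, Slamf6 and Ly9 of the SLAM family.

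Cd28 had 76.0, 45.8 and 57.2 normalized counts in PEG 1 to PEG 3 and 579, 570.2 and 482 in NC 1 to NC 3, with 5.37 and 6.25 in Unop nerves. The NC libraries lay close together, at 544 ± 53.5 (mean ± SD, n = 3), and far above 59.7 ± 15.2 in PEG-fused PNAs (n = 3). Cd28 fell by 3.19 on the log2 scale (SE 0.23, adjusted p = 0.000343) against NC PNAs and stood at 3.13 (SE 0.26, adjusted p = 2.33e-05) against Unop nerves. Icos, whose product is induced on activated T cells, stood at 323, 215 and 240.1 in PEG-fused and 1113, 2656 and 1543 in NC PNAs, with -2.69 (adjusted p = 0.000952) as its log2 fold change.

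Cd226, an activating receptor of T and NK cells, had 335, 262 and 251 normalized counts in PEG-fused PNAs, 1001, 1489 and 922 in NC PNAs and 83.7 and 61.3 in Unop nerves. Its fold change was smaller than that of Cd28, with a log2 fold change of -1.98 (SE 0.22, adjusted p = 0.000906) against NC PNAs and 1.95 (SE 0.25, adjusted p = 0.000231) against Unop nerves. Cd2, Cd5, Cd6, Cd96, Slamf1 and Ly9 had log2 fold changes between -3.21 and -2.44 in PEG-fused against NC PNAs, with adjusted p from 0.00217 to 0.00619. Without PEG 2, Cd96 stood at -2.40. Slamf1 rose by 2.39 over Unop nerves in PEG-fused PNAs (adjusted p = 0.0121), which was 1.85 without Unop 2 (adjusted p = 0.101).

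Slamf6, a SLAM family receptor of T, B and NK cells, was the gene whose PEG and NC libraries overlapped. Its values were 663, 904 and 2219 in PEG 1 to PEG 3, 1598, 2749.7 and 1917 in NC 1 to NC 3 and 37.6 and 16.3 in Unop nerves. PEG 3 stood above NC 1 and NC 3, and no other gene of the set had a PEG library above an NC library. The order among PEG libraries also differed from that of Cd3e, which had 799.9, 189 and 649 there. The part of each cell type in the Slamf6 level was not tested. The log2 fold change against NC PNAs was -0.89 (SE 0.47, adjusted p = 0.189), and without PEG 3 it was -1.39 (adjusted p = 0.04). Against Unop nerves, Slamf6 rose the most of the 43 genes in PEG-fused PNAs, by 5.42 on the log2 scale (SE 0.52, adjusted p = 5.51e-05). Its promoter is shown because its pattern departed from the set, and it too held 1 match to AGGAAG.
Slamf6 (chr13:86916706-86917005, plus strand): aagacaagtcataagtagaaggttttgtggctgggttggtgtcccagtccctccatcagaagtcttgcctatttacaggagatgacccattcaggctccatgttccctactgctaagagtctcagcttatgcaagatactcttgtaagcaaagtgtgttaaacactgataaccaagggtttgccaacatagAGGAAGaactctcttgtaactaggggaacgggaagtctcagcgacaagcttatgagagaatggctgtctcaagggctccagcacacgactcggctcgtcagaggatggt

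NK cells share several of these genes, and the genes taken as NK markers moved alongside. Whether T cells also contributed to the levels of these markers was not tested. The 5 NK markers measured (Ncr1, Klrd1, Klrk1, Klrb1a and Nkg7) summed to between 995 and 2314 normalized counts in PEG-fused PNAs, 8631 and 12702 in NC PNAs and 191 and 219 in Unop nerves. All 5 fell in PEG-fused against NC PNAs. The 3 B cell markers analysed (Cd79b, Ms4a1 and Pax5) all fell, from sums between 126 and 264 in NC PNAs to sums between 16.8 and 37.1 in PEG-fused PNAs, with 3.75 to 23.6 in Unop nerves. Of 4 dendritic cell markers, Xcr1 and Batf3 fell and Flt3 and Zbtb46 did not pass the test, at sums of 782 to 1603 in PEG-fused and 2306 to 3917 in NC PNAs. Among markers of other cells, Csf3r fell of 3 neutrophil genes, Kdr fell of 2 endothelial genes, and Pdgfra and Col1a1 rose of 3 fibroblast genes. The part of these cells in the T cell values was not tested.

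Kinases, the phosphatase and adaptors next to the receptor made up the largest group. All 15 genes fell in PEG-fused against NC PNAs, with a median log2 fold change of -2.90, and all 15 rose in NC PNAs against Unop nerves. Against Unop nerves, 12 rose in PEG-fused PNAs, Grap2 fell, and Sh2d1a and Ubash3a did not pass the test.

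Ptprc, which encodes the phosphatase CD45 of all nucleated blood cells, had 10131, 7869.8 and 9421 normalized counts in PEG-fused PNAs, 21474, 32358 and 23644 in NC PNAs and 1099 and 857 in Unop nerves. The groups did not overlap, and PEG-fused PNAs held 35.4% of the NC mean. Ptprc stood at -1.48 (SE 0.18, adjusted p = 0.00114) on the log2 scale against NC PNAs and 3.23 (SE 0.20, adjusted p = 5.61e-06) against Unop nerves. Ptprcap, which encodes a CD45-associated protein of lymphocytes, fell by 3.07 on the log2 scale (adjusted p = 0.00289).

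Lck, the kinase that starts the signal, had 898, 359.9 and 795 normalized counts in PEG-fused PNAs and 3592, 6938 and 4316 in NC PNAs. Zap70, the kinase that docks on the phosphorylated CD3 and zeta chains, had 349, 108.4 and 349 in PEG-fused PNAs and 1509, 3591 and 2178 in NC PNAs. Both kinases thus stood lowest in PEG 2 and highest in NC 2, as the CD3 chains did, with log2 fold changes of -2.90 (adjusted p = 0.00165) for Lck and -3.26 (adjusted p = 0.00269) for Zap70. Txk, a Tec family kinase of T cells, fell by 2.76 (adjusted p = 0.0015).

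Themis, a T cell protein needed for thymocyte selection, had 15.8, 8.41 and 10.3 normalized counts in PEG-fused PNAs, 66.1, 114 and 115 in NC PNAs and 0 reads in both Unop libraries. Its log2 fold change was -2.99 (SE 0.37, adjusted p = 0.00128) in PEG-fused against NC PNAs. Set against a floor of 3 reads per Unop library, which covers counting error only, Themis in PEG-fused PNAs was at least 3.30-fold higher, and in NC PNAs at least 28.2-fold higher. With Themis at this bound, the median log2 fold change of the 43 genes over Unop nerves was 3.04 for PEG-fused and 5.51 for NC PNAs.

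Adaptors of the receptor had log2 fold changes from -3.36 for Sh2d2a to -0.78 for Vav1 in PEG-fused against NC PNAs. Lat, the membrane adaptor that Zap70 phosphorylates, stood at -2.54 on the log2 scale in PEG-fused against NC PNAs. Sh2d1a, which binds SLAM receptors, stood at -3.29, Sh2d2a, which binds Lck, at -3.36, Trat1, a transmembrane adaptor, at -3.12, Skap1, which links the receptor to integrins, at -2.95, and Ubash3a, a negative regulator of the signal, at -2.73. These 6 genes had adjusted p between 0.00163 and 0.0091, and without PEG 2 Trat1 stood at -2.49 and Skap1 at -2.34. In PEG-fused PNAs against Unop nerves, Sh2d1a stood at 1.32 (adjusted p = 0.0588) and Ubash3a at 0.69 (adjusted p = 0.358). Sh2d1a was called there by DESeq2, in a fit of just the 2 groups, and without PEG 2 or NC 2. The rise of Skap1, 2.33 (adjusted p = 0.00987), was 2.94 without PEG 2 and 1.90 without Unop 1 (adjusted p = 0.0011 and 0.085).

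Lcp2, which encodes Slp-76, and Vav1, a nucleotide exchange factor for small GTPases, are also transcribed in myeloid cells. Lcp2 had 3074, 2647 and 3133 normalized counts in PEG-fused PNAs, 4742, 6626 and 5467 in NC PNAs and 421 and 406 in Unop nerves, a log2 fold change of -0.92 (SE 0.13, adjusted p = 0.00201) against NC PNAs. Vav1 had 1997, 1575 and 1931 in PEG-fused PNAs, 2356, 3791 and 3462 in NC PNAs and 181 and 131 in Unop nerves. The groups did not overlap, with PEG 1 and NC 1 the nearest libraries of the grafts. Vav1 stood at -0.78 (SE 0.20, adjusted p = 0.0219) on the log2 scale against NC PNAs and 3.55 (SE 0.22, adjusted p = 6.51e-06) against Unop nerves. The first of these calls was lost without PEG 2, PEG 3, NC 2 or NC 3, at -0.68, -0.82, -0.65 and -0.71 (adjusted p = 0.083, 0.052, 0.06 and 0.069).

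Grap2, which encodes Gads, the adaptor that ties Slp-76 to Lat, fell in PEG-fused PNAs even against Unop nerves. It had 80.6, 37.4 and 56.3 normalized counts in PEG-fused PNAs, 271, 382 and 325 in NC PNAs and 95.5 and 159 in Unop nerves. The 3 PEG libraries were the lowest of all 8 and the NC libraries the highest. In Unop nerves Grap2 stood above Cd3e, which had 39.7 and 15.0 there. The part of cells other than T cells in the Grap2 level was not tested. The log2 fold change of Grap2 was -2.52 (SE 0.31, adjusted p = 0.00133) against NC PNAs and -1.14 (SE 0.35, adjusted p = 0.0223) against Unop nerves. That of NC PNAs against Unop nerves was 1.38 (SE 0.35, adjusted p = 0.00823). The fall against Unop nerves lost its call without PEG 2 (-0.86, adjusted p = 0.056) and without Unop 2 (-0.77, adjusted p = 0.168). The rise in NC PNAs lost its call without Unop 1 (1.02, adjusted p = 0.077).

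Downstream of the adaptors, Rasgrp1, Nfatc2 and Prkcq all fell in PEG-fused against NC PNAs, with a median log2 fold change of -1.72, and parted ways against Unop nerves. Rasgrp1, the exchange factor that couples the receptor to Ras, had 321, 310.4 and 268 normalized counts in PEG-fused PNAs, 1234, 1587 and 1306 in NC PNAs and 53.7 and 48.8 in Unop nerves. The libraries of each group lay close together. The fold change against NC PNAs, -2.19 (SE 0.14, adjusted p = 0.000338) on the log2 scale, had the smallest adjusted p of the 43 genes, and that against Unop nerves was 2.52 (SE 0.16, adjusted p = 6.09e-06).

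Nfatc2, a transcription factor that calcineurin activates, had 84.3, 97.2 and 111 normalized counts in PEG-fused PNAs, 189, 179 and 222 in NC PNAs and 63.3 and 60.0 in Unop nerves. The groups did not overlap, though the steps between them were small beside those of the CD3 chains. Nfatc2 stood at -1.01 (SE 0.18, adjusted p = 0.00508) on the log2 scale against NC PNAs. Against Unop nerves it was 0.64 (SE 0.20, adjusted p = 0.0234) in PEG-fused PNAs, a call lost without PEG 2 (adjusted p = 0.054), PEG 3 (0.078), Unop 1 (0.058) or Unop 2 (0.081), where the value lay between 0.55 and 0.68.

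Prkcq encodes protein kinase C theta, which leads from the receptor to NF-kappaB in T cells and is also abundant in skeletal muscle. It was the gene of the set that was highest in Unop nerves, with 4889.5 and 6340.0 normalized counts, beside 1559, 1746 and 1234 in NC PNAs and 488, 384 and 503 in PEG-fused PNAs. The order of the 3 groups was thus Unop above NC above PEG, without overlap. The log2 fold change was -1.72 (SE 0.17, adjusted p = 0.000624) in PEG-fused against NC PNAs, -3.61 (SE 0.19, adjusted p = 2.63e-06) in PEG-fused PNAs against Unop nerves and -1.89 (SE 0.19, adjusted p = 4.36e-05) in NC PNAs against Unop nerves. In that last comparison Prkcq was the 1 gene of 43 called lower.

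Schwann cell markers were, like Prkcq, lower in grafts than in Unop nerves, and both were called in each kind of graft. The 2 Schwann cell markers analysed (Sox10 and S100b) summed to between 157294 and 171626 normalized counts in Unop nerves, 18855 and 19113 in PEG-fused PNAs and 6071 and 9441 in NC PNAs. In PEG-fused against NC PNAs both rose, opposite to Prkcq. The skeletal muscle markers Ckm and Acta1 summed to between 4257 and 250062 in NC PNAs, 1237 and 7699 in PEG-fused PNAs and 2111 and 12289 in Unop nerves. The NC libraries lay far apart, and neither marker was called in any comparison. By the paper's account, thin layers of muscle often adhere to rejected NC PNAs and could not be wholly removed before excision. Of the fibroblast markers, Pdgfra rose and Dcn fell in both kinds of graft against Unop nerves. The lowest muscle sum among NC libraries was in NC 2, in which Prkcq was the highest of NC libraries. The part of these cells in the Prkcq level was not tested. Its promoter, shown because Prkcq ran against the set in both comparisons with Unop nerves, held 1 match to AGGAAG just after the start.
Prkcq (chr17:72288459-72288758, minus strand): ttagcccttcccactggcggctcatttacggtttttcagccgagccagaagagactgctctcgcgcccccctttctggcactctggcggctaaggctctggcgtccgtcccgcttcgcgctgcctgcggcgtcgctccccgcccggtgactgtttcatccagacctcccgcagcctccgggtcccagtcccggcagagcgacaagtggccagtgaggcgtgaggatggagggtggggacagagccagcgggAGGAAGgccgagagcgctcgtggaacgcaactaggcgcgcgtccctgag

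The transcription factors of the set all fell in PEG-fused against NC PNAs, 8 of 8, with a median log2 fold change of -2.75. All 8 rose in NC PNAs against Unop nerves, whereas 5 rose in PEG-fused PNAs and Gata3, Tcf7 and Lef1 did not pass the test.

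Foxp3, the factor of regulatory T cells, had 62.1, 41.1 and 45.0 normalized counts in PEG-fused PNAs, 400.3, 385 and 211 in NC PNAs and 3.22 and 10 in Unop nerves. The PEG libraries lay well below the lowest NC library. The log2 fold change was -2.69 (SE 0.41, adjusted p = 0.00265) against NC PNAs and 2.86 (SE 0.46, adjusted p = 0.000871) against Unop nerves, where leaving out Unop 1 gave 2.17 and Unop 2 gave 3.56. Tbx21, which encodes T-bet of type 1 helper, cytotoxic and NK cells, had 160.4, 37.4 and 100.4 in PEG-fused PNAs, 517, 1156 and 694 in NC PNAs and 7.51 and 6.25 in Unop nerves. Here too the groups did not overlap, with a log2 fold change of -3.12 (SE 0.51, adjusted p = 0.00357) against NC PNAs and 3.45 (SE 0.57, adjusted p = 0.00106) against Unop nerves.

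Lef1, a partner of Tcf7 in naive T cells that other tissues also transcribe, had the smallest fold change of the 8 in PEG-fused against NC PNAs. It had 287, 251 and 353 normalized counts in PEG-fused PNAs, 582, 1038 and 413 in NC PNAs and 177 and 164 in Unop nerves. PEG 3, the highest PEG library, and NC 3, the lowest NC library, lay closest. On the log2 scale Lef1 stood at -1.09 (SE 0.30, adjusted p = 0.0296) against NC PNAs, a call lost without PEG 1 (-1.08, adjusted p = 0.076) or PEG 2 (-0.98, adjusted p = 0.103), and 0.79 (SE 0.34, adjusted p = 0.0788) against Unop nerves, where the call was made by DESeq2, in a fit of just the 2 groups, and without NC 2 or NC 3. Tcf7, which encodes TCF-1, stood at -2.10 (adjusted p = 0.00422) against NC PNAs and at 1.00 (adjusted p = 0.0588) against Unop nerves, where DESeq2 and edgeR made the call, as did the fits without PEG 2 or NC 2. Gata3, the factor of type 2 helper T cells, had 40.8, 18.7 and 30.0 in PEG-fused PNAs and 22.5 and 17.5 in Unop nerves, which overlapped, and 98.3, 214 and 111 in NC PNAs.

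Eomes, of cytotoxic T and NK cells, had 58.4, 21.5 and 17.8 normalized counts in PEG-fused PNAs, 145, 317 and 189 in NC PNAs, and 4 reads and 0 reads in Unop nerves. It fell by 2.82 on the log2 scale (adjusted p = 0.017), a call lost without PEG 2 (-2.63, adjusted p = 0.064) or PEG 3 (-2.50, adjusted p = 0.061). Bcl11b, which fixes T lineage identity, stood at -3.22 (adjusted p = 0.00725), and at -2.53 without PEG 2. Ikzf3, which encodes Aiolos of mature lymphocytes, stood at -2.86 (adjusted p = 0.0191), at -1.99 without PEG 2, and lost its call without NC 2 (-2.56, adjusted p = 0.054) or NC 3 (-2.84, adjusted p = 0.053). Its rise over Unop nerves in PEG-fused PNAs, 2.50 (adjusted p = 0.0252), lost its call without PEG 1, PEG 3, Unop 1 or Unop 2, at 2.21, 1.93, 2.06 and 2.94 (adjusted p = 0.074, 0.072, 0.152 and 0.057). Without PEG 2 it was 3.37 (adjusted p = 0.00105).

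**Figure D3:**
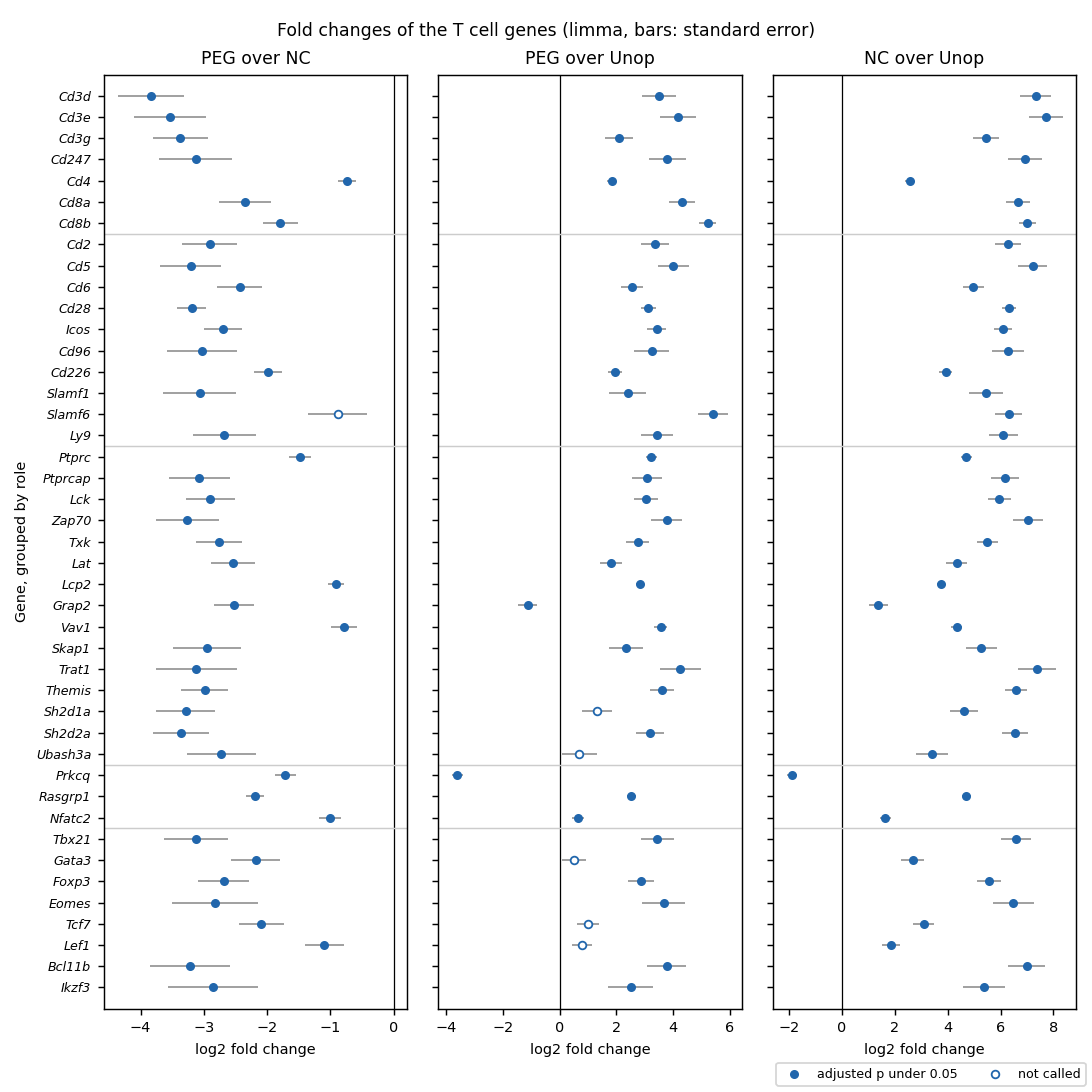
Log2 fold change (horizontal axis, limma) with its standard error of each of the 43 genes, grouped by role, in PEG-fused against NC PNAs, PEG-fused PNAs against Unop nerves and NC PNAs against Unop nerves. Filled points passed an adjusted p of 0.05. All points lie below 0 in the first panel, and Prkcq and Grap2 stand apart on the lower side in the second.

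Genes of the set that are also transcribed outside lymphocytes had a median fold change nearer to 0, with exceptions such as Bcl11b. The 11 such genes measured (Cd4, Ptprc, Lcp2, Vav1, Gata3, Tcf7, Lef1, Bcl11b, Nfatc2, Prkcq and Rasgrp1) had a median log2 fold change of -1.48 in PEG-fused against NC PNAs, and the remaining 32 had -2.93. All 11 were called lower, and 31 of the 32 were. The 32 are not genes of T cells alone, since NK or B cells also carry some, such as Cd96, Cd226 and Slamf6. Grap2 is also among the 32, and the cells behind its level in Unop nerves were not tested. In PEG-fused PNAs against Unop nerves the medians were 1.83 and 3.22. These medians describe the lists, which were not compared by a test.

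Levels were also set against the CD3 chains within each library, as log2(normalized count + 1) of a gene minus the mean of that of Cd3d, Cd3e and Cd3g. Such a ratio does not depend on the scaling of the library, save through the pseudocount of 1 in genes with low counts. A higher ratio in PEG-fused than in NC PNAs means a smaller fold change than that of the CD3 chains. Cd3d, Cd3e and Cd3g had the largest falls of the set, so this choice of reference fixes the direction: the mean ratio was higher in PEG-fused PNAs for each of the 40 other genes. The ratios are therefore given as a description of how far each gene stood from the CD3 chains, with no test, for 10 genes.

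Coreceptors differed by unequal amounts. The ratio of Cd4 to the CD3 chains was 3.82, 5.55 and 3.95 in PEG 1 to PEG 3, 1.69, 1.20 and 1.88 in NC 1 to NC 3 and 5.46 and 6.26 in Unop nerves, so the mean was 2.85 higher, or 7.20-fold, in PEG-fused than in NC PNAs. That of Cd8b was 1.85, 2.84 and 1.58 in PEG-fused PNAs, 0.36, -0.08 and 0.63 in NC PNAs and -0.01 and 0.26 in Unop nerves, a difference of 1.79 between PEG-fused and NC PNAs. Cd8a differed by 1.23 and Ptprc by 2.10. PEG 2, with the lowest CD3 levels, had the highest ratio of Cd4, Cd8a, Cd8b and Ptprc. Rat macrophages also carry Cd4, and their part in its ratio was not tested. The part of cells other than T cells in the ratios of Cd8a, Cd8b and Ptprc was not tested either.

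The 2 kinases among the 10 genes had smaller differences than the coreceptors. The ratio of Lck differed by 0.68 and that of Zap70 by 0.32 between PEG-fused and NC PNAs, and that of Zap70 was -0.36, -0.14 and -0.11 in the PEG libraries and -0.67, -0.37 and -0.53 in the NC libraries. Among subset factors, Tbx21 differed by 0.46 and Gata3 by 1.40 without overlap. Gata3 is also transcribed outside lymphocytes, and its counts in PEG-fused PNAs overlapped those of Unop nerves. The part of other cells in the Gata3 ratio was not tested. Foxp3 differed by 0.89 and Eomes by 0.76, and for both the PEG and NC libraries overlapped.

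**Figure D4:**
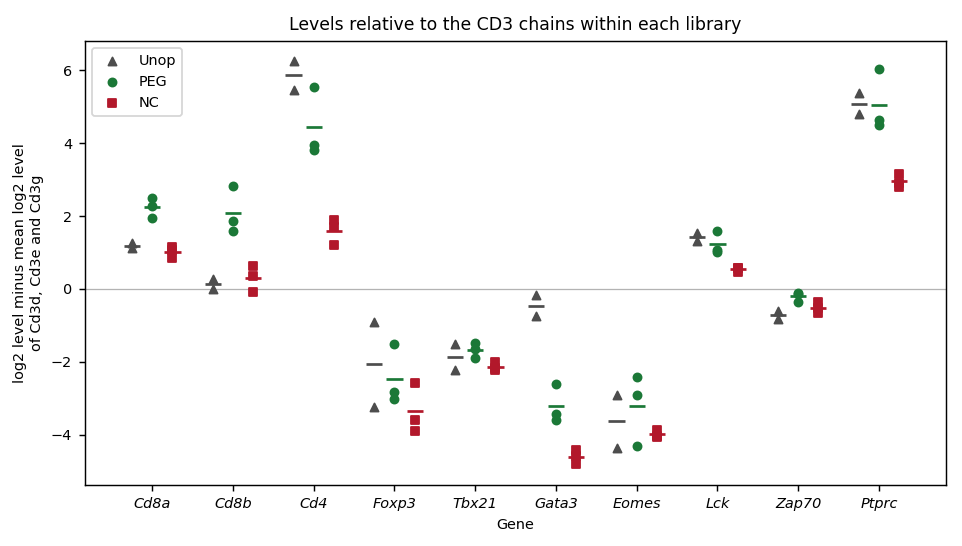
Level of 10 genes relative to the CD3 chains in each library (vertical axis, log2), for Unop nerves, PEG-fused PNAs and NC PNAs, with a bar at each group mean. PEG libraries lie above NC libraries for all genes but Foxp3 and Eomes, where they overlap.

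The 35 other genes of T cell receptor signalling that were analysed had a median log2 fold change of -0.46 in PEG-fused against NC PNAs, beside -2.76 for the set. Of these, 23 fell, 2 rose and 10 did not pass the test, where 13.9% of all genes tested fell and 15% rose. Most of the 35 genes are transcribed in many tissues. The largest falls were those of Ptpn22, a phosphatase of lymphoid and myeloid cells (-2.82), Sla2, an adaptor that dampens receptor signalling (-2.55), and Rhoh (-2.42). Tespa1 was not analysed here.

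Rhoh, an atypical small GTPase of blood cells that Zap70 signalling needs, had the smallest adjusted p among those that fell. It had 312, 204 and 276 normalized counts in PEG-fused PNAs, 1306, 1718 and 1218 in NC PNAs and 75.1 and 57.5 in Unop nerves, and a log2 fold change against NC PNAs of -2.42 (SE 0.21, adjusted p = 0.000472). Ptpn6, the phosphatase SHP-1, followed with -1.25 (SE 0.12, adjusted p = 0.000623), and Stim1, the calcium sensor of the endoplasmic reticulum, with -0.66 (SE 0.08, adjusted p = 0.000979). Stim1 was at 1141, 1157 and 1205 in PEG-fused PNAs, 1859, 1943 and 1756 in NC PNAs and 1904 and 1955 in Unop nerves, so that NC PNAs stood near Unop nerves.

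Ubash3b and Tec rose in PEG-fused against NC PNAs. Ubash3b, a phosphatase related to Ubash3a that is found beyond lymphocytes, had 1379, 1431 and 1552 in PEG-fused and 1063, 1163 and 1065 in NC PNAs. Its log2 fold change was 0.41 (SE 0.09, adjusted p = 0.0109), and that of Tec, a kinase related to Txk, was 0.40 (SE 0.10, adjusted p = 0.0176). Neither rise passed the test in every subset of libraries, with 1 gene called higher without PEG 2 and 0 without PEG 3. Without PEG 1, PEG 2 or PEG 3, 17, 18 and 18 genes were called lower. Against Unop nerves, 17 of the 35 rose and 8 fell in PEG-fused PNAs, where 29.1% of all genes tested rose and 28.6% fell. In NC PNAs 21 rose and 4 fell, where the shares of all genes tested were 32.2% and 32.3%.

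**Figure D5:**
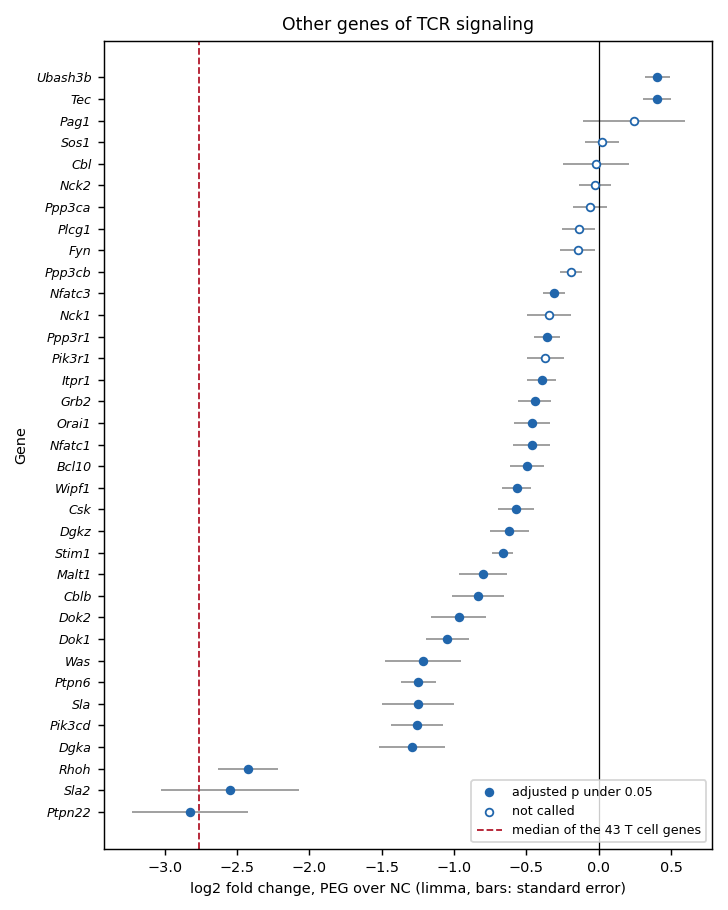
Log2 fold change of PEG-fused against NC PNAs (horizontal axis, limma) with its standard error for the 35 other genes of T cell receptor signalling, in order of size, with the median of the 43 T cell genes as a dashed line at -2.76. Ptpn22 lies just beyond that line, Sla2 and Rhoh come next, most genes lie between it and 0, and Ubash3b and Tec are the filled points above 0.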

How the data were processed

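Libraries of 3 PEG-fused PNAs, of 3 NC PNAs and of 2 Unop nerves (TruSeq Stranded mRNA) were sequenced as paired-end reads. The signal values deposited by the authors are normalized counts: reads were aligned to Rnor 6.0 with TopHat2, counted per gene with HTSeq (strand setting not given in the sources used here) and scaled with DESeq2 by the median of ratios. The authors' columns of fold changes, standard errors, Wald statistics and p-values were not used.

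Limma 3.58.1 (trend, R 4.3.3) was fitted to log2(normalized count + 1) of all 8 libraries, for the 16478 genes that reached 10 normalized counts in 2 or more libraries. Calls are at a Benjamini-Hochberg adjusted p under 0.05 over these genes. The pseudocount of 1 understates changes of low genes. Of the values, 100% gave whole reads within 0.001 after multiplication by size factors of 0.800 to 1.12, and edgeR 4.0.16 and DESeq2 1.42.0 were run on these reads. Depth was 32472925 to 39959620 reads on genes per library. Other alternatives were TMM rescaling, a pseudocount of 8, no filter, a filter of 50, a fit of just the pair of groups compared, robust empirical Bayes, a replicate block, a fold change threshold and each library left out in turn. The test was checked on simulated data.

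The members and lists were chosen with earlier results of these data known. All genes of the set were named. In each role, the 2 with the smallest adjusted p in PEG-fused against NC PNAs and the 1 with the smallest fold change were given in full, with genes called against the set or at 0 reads in a group, and 3 other pathway genes at most per direction. Further values were added where a statement rests on them. The marker genes Cd79a, Pecam1, Myh1 and Myh4 were not analysed here, and some other genes of the pathway and marker lists are not reported here. Promoters are from RefSeq (GRCr8) and matched 34 genes by symbol, which leaves Cd4, Cd6, Cd8b, Lcp2, Grap2, Ptprcap, Skap1, Bcl11b and Ikzf3 without an entry. Replicate numbers were not used as pairs.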

Additional observations from a re-analysis of the deposited data

How the results depend on the processing

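No fold change of the 43 genes reversed under any alternative, and 2152 of the values kept their side of the threshold, 28 lost a call and 13 gained one. Counts of the 43 genes called in PEG-fused against NC PNAs were between 39 and 42. Of Grap2 and Prkcq, the 2 genes that fell in PEG-fused PNAs against Unop nerves, 1, Prkcq, was called with the replicate block, and between 1 and 2 with 1 library left out. The replicate numbers did not pair the libraries (correlations of deviations between -0.028 and 0.092), and the block left 41 genes lower in PEG-fused against NC PNAs and 34 higher in PEG-fused PNAs against Unop nerves. With a log2 fold change beyond 1 required as well, the other pathway genes went from 23 to 9 lower and from 2 to 0 higher in PEG-fused against NC PNAs, and those called lower against Unop nerves went from 8 and 4 to 0 in PEG-fused and in NC PNAs. With 1 library left out, between 0 and 2 of them were higher. Unop rests on 2 libraries, and without 1 of them the other is assumed to vary like the other groups.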
